A study of Homo sapiens with 30 samples.

Results

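Knockout cells that carried a catalytically dead NSD2 were compared with the knockout cells themselves. The comparison rested on 6 of the 30 arrays of the series, 3 titled CDM (not CDM+MMSET1) and 3 titled TKO, chosen by title alone. All cells were KMS11, an established human multiple myeloma line. TKO is described as an NSD2 knockout, and CDM is labelled with the catalytic dead mutant of NSD2 and belongs to the 8 lines that the series title calls reconstituted. The other lines were the parental line (PAR), WT (wild-type NSD2), H762Y (NSD2 with that substitution), 526-1240 and 526-1365 (NSD2 fragments named by residue), MMSET1 (the MMSET I isoform), and WT+MMSET1 and CDM+MMSET1, which carried MMSET I beside WT or dead NSD2. Each line had 3 cultures, and each combination of transgenes was read in a single line. The groups analysed here hold no empty-vector line, so in every comparison with TKO the dead protein, delivery of a transgene, selection and drift of the line cannot be told apart. The residue changed in CDM, the part of NSD2 removed in TKO and whether the lines are clones do not appear in the sources used here.

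NSD2, also called MMSET, dimethylates lysine 36 of histone H3 through its SET domain. A chromosomal translocation places it under immunoglobulin enhancers in a subset of myelomas, KMS11 among them. The protein also holds PWWP and PHD modules that read chromatin, and the short isoform MMSET I lacks the SET domain. A dead mutant keeps those modules without the methyltransferase activity, and comparing it with the knockout asks what such a protein, or the making of the line, changes.

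Values are the authors' log2 RMA values of Affymetrix HG-U133 Plus 2.0 arrays, where 1 unit is a 2-fold change, and levels of different genes are not compared. Means under 5.013, the midpoint of all values, are called dim. Array medians of CDM and TKO lay between 4.986 and 5.028. Correlations across genes were 0.994 to 0.9961 within CDM, 0.9916 to 0.9954 within TKO and 0.9809 to 0.9885 between them. One array outside the comparison stood apart, H762Y replicate 1, which correlated with the other H762Y arrays at 0.958 and 0.961 while those correlated at 0.998. It enters the shared estimate of spread, and the number of genes that differed between CDM and TKO was 2877 without it instead of 2256. The array number limits the precision, and the sources used here call the 3 cultures of a line biological triplicates without saying how they were kept apart.

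NSD2 itself was read on 6 probe sets. On 223472_at the TKO arrays stood at 7.688, 7.823 and 7.565 and the CDM arrays at 8.145, 8.478 and 8.059. All CDM arrays were above all TKO arrays there, by a mean of 0.536 (SE 0.145, limma adjusted p = 0.0114 over all probe sets). Probe set 222777_s_at also passed (0.454, adjusted p = 0.042), so 2 of 6 did, against 17.1% of all probe sets tested. The brightest, 209054_s_at, stood at 10.18 ± 0.111 in TKO and 10.37 ± 0.0573 in CDM (SD, n = 3 arrays each), a difference that missed the threshold (0.191, limma adjusted p = 0.198), as did 222778_s_at (0.108), 209053_s_at (-0.033) and 209052_s_at (-0.113). TKO thus kept NSD2 signal on the array. Which probe sets lie in the part removed, or in the transgene, the sources used here do not say, so the arrays do not test the knockout label. The number of NSD2 probe sets past the threshold was 0 without CDM replicate 2 or TKO replicate 3 and 1 without CDM replicate 1 or TKO replicate 2.

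Dead NSD2 and knockout cells differed at many genes by modest amounts. By limma at an adjusted p under 0.05, 2256 of 13137 genes (17.2%) differed, 1313 higher (9.99%) and 943 lower (7.18%) in CDM. Their median absolute difference was 0.474, and 33 genes (0.251%) were at least 2-fold higher and 51 (0.388%) at least 2-fold lower. Without regard to a test, the arrays of CDM and TKO did not overlap at 5670 genes (43.2%), with CDM higher at 24% and lower at 19.1%. The balance depends on how a gene's probe sets are combined: with their mean, 1795 genes passed, 750 higher and 1045 lower, so the share higher was 41.8% instead of 58.2%. The replicate numbers paired the CDM and TKO arrays, and a fit of these lines alone with the number as a block gave 4092 genes, 2402 higher and 1690 lower, against 3410 without the block. Leaving out TKO replicate 1 lowered the count to 1438.

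The genes highest in CDM relative to TKO included receptors and signalling proteins. IL7R, the interleukin-7 receptor chain of lymphocytes, stood at 4.42, 4.912 and 4.854 in TKO and 6.068, 7.111 and 6.92 in CDM, the largest difference of the comparison among genes whose arrays did not overlap (1.97, SE 0.316, 3.92-fold, limma adjusted p = 0.000137). IL7R was dim in TKO, and its other probe set rose by 0.69. GNAI1, an inhibitory G protein subunit, stood at 4.662, 4.721 and 4.858 in TKO and 5.983, 6.614 and 6.619 in CDM (1.66, SE 0.190, adjusted p = 3.3e-06, and 1.39 on its other probe set). IGF1R, the receptor of insulin-like growth factor 1, stood at 7.391, 7.29 and 7.338 in TKO and 8.435, 8.471 and 8.596 in CDM (1.16, adjusted p = 1.76e-06). The MAP kinase phosphatase DUSP4 stood at 6.553, 6.683 and 6.488 in TKO and 7.64, 7.863 and 7.749 in CDM (1.18, adjusted p = 7.04e-05). Its other probe sets rose by 1.35 and 1.45, so all 3 moved together. The T cell receptor adaptor TRAT1 (1.41) and the ubiquitin ligase CBLB (1.24), which restrains antigen receptor signalling, were also higher. The call of CBLB was lost without CDM replicate 2 or TKO replicate 1.

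The other genes among the 15 highest were the microtubule-associated MAP9 (1.59), the Notch coactivator MAML3 (1.47), the single-stranded DNA binding RADX (1.46), the endoplasmic reticulum cyclophilin PPIC (1.35), BEND4 (1.35), a probe set annotated to MIR3916 (1.33), which does not read the mature microRNA, the polyamine transporter SLC18B1 (1.21), the minus-end directed motor MYO6 (1.20) and the zinc finger protein ZBTB10 (1.20). RADX stood at 5.488, 5.672 and 5.669 in TKO and 6.811, 7.216 and 7.188 in CDM (SE 0.116, limma adjusted p = 4.23e-08). The CDM arrays of all 15 genes lay above the TKO arrays, as the rule that named them required. Of the 15, IL7R, GNAI1, MAP9, MAML3 and TRAT1 were dim in TKO, and MAML3 was dim in CDM too. For several, other probe sets gave other values: MYO6 showed -0.29 and 0.08 on its 2 others, MAML3 -0.04 and -0.03 on 2 that were too dim to be tested, and averaging lowered ZBTB10 to 0.32, which missed the threshold.

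**Figure D1:**
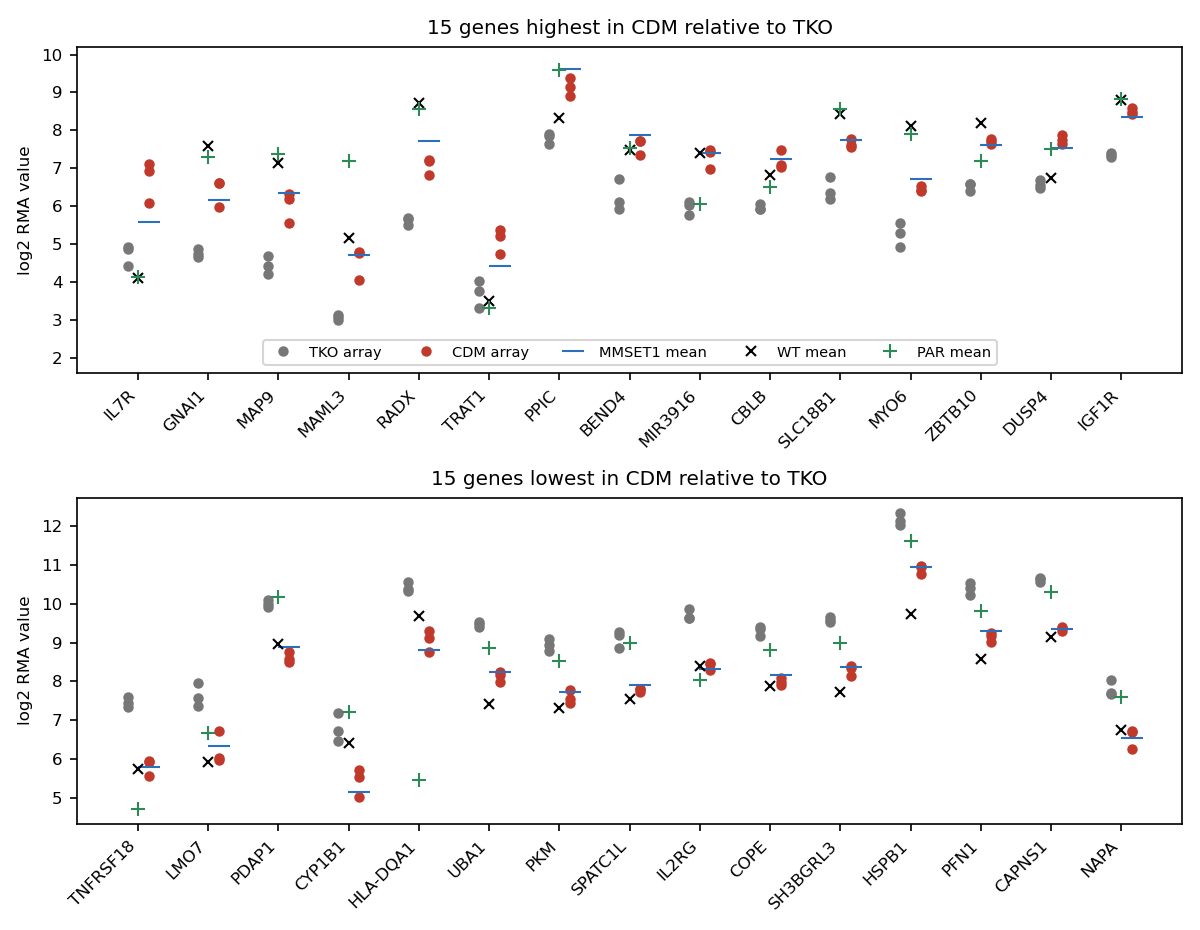
Log2 RMA values of the 15 genes highest (top) and 15 lowest (bottom) in CDM relative to TKO, 1 dot per array, with MMSET1, WT and PAR shown as line means of 3 arrays. For GNAI1, MAP9, RADX and MYO6 CDM lies between TKO and WT, IL7R is low in WT and PAR, and PDAP1 is lower in WT, CDM and MMSET1 than in TKO and PAR. The genes were chosen by CDM against TKO, which sets CDM apart from TKO in each panel.

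Among the 15 lowest were immune receptors. TNFRSF18, the costimulatory receptor GITR, stood at 7.454, 7.592 and 7.338 in TKO and 5.933, 5.942 and 5.567 in CDM (-1.65, SE 0.168, limma adjusted p = 6.8e-07, and -1.17 on its other probe set). IL2RG, the common gamma chain that pairs with IL7R, stood at 9.645, 9.874 and 9.628 in TKO and 8.454, 8.479 and 8.283 in CDM (-1.31, adjusted p = 1.33e-06). The 2 chains of the interleukin-7 receptor therefore moved in opposite directions. IL2RG was at 8.025 in PAR and between 8.275 and 8.53 in all 8 transgene lines, so TKO was the line that stood high. The choice of this gene used the TKO arrays, which favours that order.

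Among the other lowest genes, PDAP1, a PDGF-associated phosphoprotein, stood at 9.984, 10.091 and 9.907 in TKO and 8.576, 8.757 and 8.508 in CDM (-1.38, SE 0.133, limma adjusted p = 3.58e-07). PAR read 10.17, and the means of the 8 transgene lines ran from 8.614 to 8.966, so PAR and TKO were high together. The ubiquitin-activating enzyme UBA1 (-1.34), the pyruvate kinase PKM (-1.34), the coatomer subunit COPE (-1.30), the actin monomer binding protein profilin PFN1 (-1.25), the calpain small subunit CAPNS1 (-1.25), the SNARE disassembly factor NAPA (-1.25), SH3BGRL3 (-1.30) and SPATC1L (-1.32) had means in all 8 transgene lines below those of both TKO and PAR. The other probe set of PKM read 0.02, and that of NAPA fell by 1.46. LMO7, a LIM domain protein of cell junctions (-1.39), the cytochrome P450 enzyme CYP1B1 (-1.37) and HLA-DQA1 (-1.36) were lower as well. The small heat shock protein HSPB1 (-1.28, adjusted p = 0.0453) was lost without any 1 of the 6 arrays.

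HLA class II genes were mostly lower in CDM. These genes encode the molecules that present peptides to helper T cells, and their promoters are known for an X box bound by RFX and a Y box bound by NF-Y, which CIITA joins as coactivator. Promoters of 4 of the lower genes are shown to let those letters be seen. They are the 250 bases before the RefSeq start (GRCh38.p14), 5′ to 3′, with 2 patterns in capitals, searched on both strands: ATTGG, the core of the Y box, and AGNAAC followed directly by NNATG, a form of the X box. ATTGG was in 7 of the 8 class II genes lower in CDM that have an entry, against 32% of all 35116 promoters, and the X box pattern in 2 of 8 (HLA-DRB1 and HLA-DMB), against 0.735%. The matches shown do not overlap. A match describes letters and shows no binding.
HLA-DRB1, chr6:32589849-32590098, minus strand: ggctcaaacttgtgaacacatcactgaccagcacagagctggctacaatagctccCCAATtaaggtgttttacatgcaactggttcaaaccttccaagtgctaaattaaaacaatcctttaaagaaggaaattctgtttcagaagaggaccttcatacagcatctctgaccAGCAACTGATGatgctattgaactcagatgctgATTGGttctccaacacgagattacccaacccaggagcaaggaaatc
HLA-DMB, chr6:32941029-32941278, minus strand: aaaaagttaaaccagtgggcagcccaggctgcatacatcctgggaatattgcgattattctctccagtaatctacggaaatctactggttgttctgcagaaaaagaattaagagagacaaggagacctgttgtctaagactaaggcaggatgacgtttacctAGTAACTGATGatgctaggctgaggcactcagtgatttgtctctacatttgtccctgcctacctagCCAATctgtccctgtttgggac
HLA-DMA, chr6:32953098-32953347, minus strand: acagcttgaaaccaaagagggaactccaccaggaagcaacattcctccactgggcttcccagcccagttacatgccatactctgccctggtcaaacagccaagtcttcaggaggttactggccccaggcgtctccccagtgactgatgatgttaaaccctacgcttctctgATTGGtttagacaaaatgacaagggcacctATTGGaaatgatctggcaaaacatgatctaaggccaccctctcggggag
CD74, chr5:150412911-150413160, minus strand: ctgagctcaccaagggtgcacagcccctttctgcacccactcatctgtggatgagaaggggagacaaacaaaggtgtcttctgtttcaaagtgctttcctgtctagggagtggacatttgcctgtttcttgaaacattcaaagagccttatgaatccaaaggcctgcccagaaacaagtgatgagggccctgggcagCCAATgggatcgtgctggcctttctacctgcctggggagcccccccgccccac

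Of 17 class II genes and regulators tested, 11 were lower in CDM and 1 was higher (7.18% and 9.99% of all genes), with a median difference of -0.70 against 0.01 over all genes. HLA-DMA, which loads peptides, stood at 10.246, 10.229 and 10.262 in TKO and 9.265, 9.36 and 8.943 in CDM (-1.06, SE 0.183, limma adjusted p = 0.000295). The invariant chain CD74 stood at 12.662, 12.572 and 12.35 in TKO and 11.821, 11.75 and 11.359 in CDM (-0.88, adjusted p = 9.85e-06). The groups did not overlap for either gene. CIITA stood at 8.212, 8.168 and 8.311 in TKO and 7.368, 7.599 and 7.221 in CDM (-0.83, adjusted p = 0.000828). Lower too were HLA-DRB4 (-1.01), HLA-DQB1 (-0.95), HLA-DRB1 (-0.76), HLA-DRA (-0.70), HLA-DPB1 (-0.68), HLA-DMB (-0.64) and HLA-DPA1 (-0.46). Of the RFX subunits, RFXAP was higher (0.37, limma adjusted p = 0.0482), but its other probe set read -0.32. RFX5 (0.02), RFXANK (-0.37), HLA-DOA (-0.01) and HLA-DOB (-0.04) missed the threshold. The other probe set of RFX5 read -0.54 (limma adjusted p = 0.015 over all probe sets). The cathepsin CTSS also missed the threshold (-1.05, limma adjusted p = 0.0734), and its other probe sets read 0.03 and -0.16. Near-identical DR and DQ genes can be read by each other's probe sets, which makes single values of these families uncertain. With the replicate block 13 were lower, with averaged probe sets 11 of 16, and without TKO replicate 1 10. The call of RFXAP was lost with averaged probe sets, without TKO replicate 1 and without CDM replicate 3.

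The parental line placed these genes lower still. HLA-DRA was at 11.2 in PAR and CD74 at 10.69, while HLA-DQA1 (5.463) and HLA-DPA1 (5.003) were near or under the dim limit there. TKO had the highest mean of all 10 lines, and PAR a lower mean than CDM, at each of the 11 lower genes. The 11 were chosen for TKO above CDM on the same arrays, which favours a high rank of TKO. None of the 11 passed the test between WT and CDM, where 23.4% of all genes did: HLA-DRA differed by -0.02 and CD74 by -0.04. RFXAP (0.49) and RFXANK (-0.47) did pass there. In CDM+MMSET1 against MMSET1 0 of the 17 differed (background 0.0152%), with a median of -0.03.

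**Figure D2:**
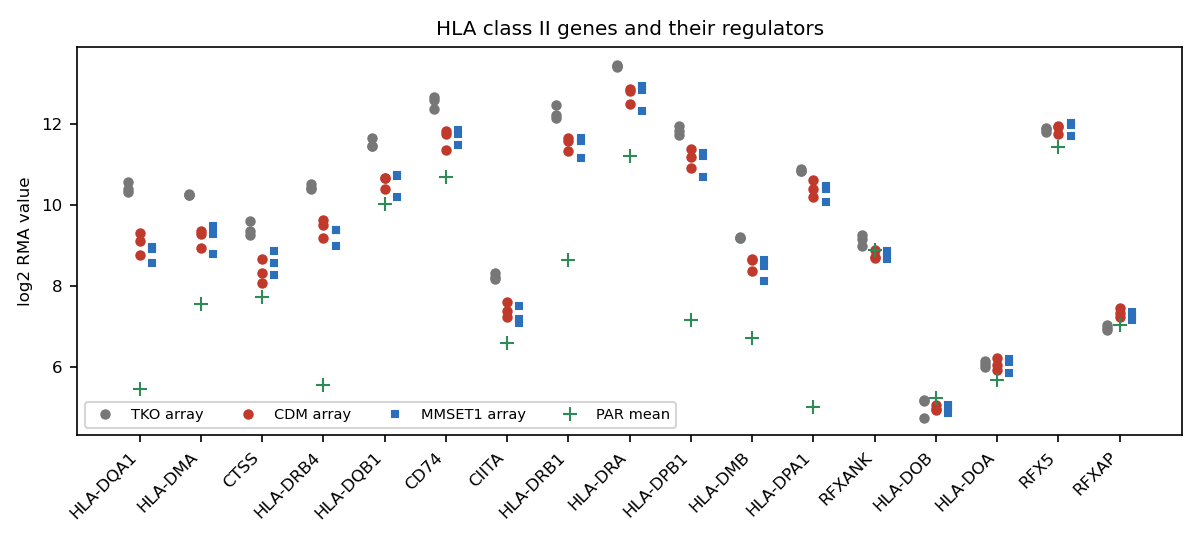
Log2 RMA values of 17 HLA class II genes and regulators, ordered by the difference between CDM and TKO, 1 mark per array of TKO, CDM and MMSET1 and a cross for the PAR mean. CDM and MMSET1 arrays lie together below TKO for 11 genes that passed the test in CDM, and PAR lies lower again for most of them.

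Class I genes, which present peptides of the cell's own proteins to cytotoxic T cells, were lower by less. Of 15 tested, 8 were lower and 2 higher (7.18% and 9.99% of all genes), with a median of -0.34. HLA-G (-0.85), HLA-F (-0.79), HLA-B (-0.69), HLA-E (-0.65), HLA-C (-0.62), the immunoproteasome subunits PSMB9 (-0.42) and PSMB8 (-0.34) and the peptide transporter TAP1 (-0.36) were lower. The class I transactivator NLRC5 (0.46) and the trimming peptidase ERAP1 (0.41) were higher. HLA-B stood at 13.073, 12.8 and 12.835 in TKO and 12.309, 12.222 and 12.1 in CDM (adjusted p = 0.00178 by limma). WT was above CDM at 4 of the 15, and at 12.4% of all genes: HLA-B (0.53), HLA-C (0.53), HLA-F (0.63) and HLA-G (0.38, limma adjusted p = 0.0469). PAR was at 12.97 for HLA-B, near TKO. Without TKO replicate 1 the number lower was 5, and HLA-E was among those lost. HLA-E, HLA-F and HLA-G probe sets may also read other class I transcripts.

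NF-kB genes were lower in part, and the lists of B cell and innate genes held few calls. Of 11 NF-kB targets and subunits 6 were lower and 0 higher (median -0.28, against 7.18% lower and 9.99% higher of all genes): TNFAIP2 (-0.58), RELB (-0.53), ICAM1 (-0.47), NFKB2 (-0.34), NFKBIE (-0.28) and NFKB1 (-0.27). RELB (adjusted p = 0.0397) and NFKB2 (adjusted p = 0.0305) were each lost in several fits with 1 array left out, and TNFAIP2 without TKO replicate 1. The list gave 3 lower without TKO replicate 1 and 3 without CDM replicate 3. Of 10 genes of earlier B cells, SPIB, an ETS factor (-0.76), and CIITA were lower, and averaging took SPIB to -0.26, which missed the threshold. LAIR1, an inhibitory collagen receptor, was the 1 of 12 innate receptors that differed (-0.81). Of 13 plasma cell genes the octamer coactivator POU2AF1 was higher (0.34, limma adjusted p = 0.0412) and 0 were lower, a call lost without any 1 of the 6 arrays. The 13 interferon response genes tested gave 0 calls (median 0.04), and 2 higher and 2 lower with the replicate block.

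Of 13 genes of RAS-MAPK output 3 were higher, where 9.99% of all genes were, and 0 lower (median 0.16). Besides DUSP4 these were the ERK phosphatase DUSP6, at 10.748, 10.624 and 10.551 in TKO and 11.443, 11.379 and 11.658 in CDM (0.85, limma adjusted p = 0.016), and the RAS inhibitor SPRED1 (0.41, adjusted p = 0.019). Without CDM replicate 3 the list gave 1 call, that of DUSP4, and DUSP6 was also lost without TKO replicate 3. The difference from WT had the opposite sign at DUSP4 (-1.0) and DUSP6 (-1.30): both were lower in WT than in CDM, and in WT against TKO they differed by 0.18 and -0.45.

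The ATF4 and endoplasmic reticulum lists held few calls, at shares near the 7.18% of all genes that were lower. The sterol and fatty acid lists stood above that share, on 3 and 2 genes. Of 23 ATF4 targets 2 were lower, the subunits of 1 amino acid exchanger, SLC3A2 (-1.18) and SLC7A5 (-0.50), with a list median of -0.44. SLC3A2 read 10.222, 9.82 and 9.194 in TKO and 8.746, 8.401 and 8.552 in CDM, so the TKO arrays were spread over a full unit. SLC3A2 and SLC7A5 were also lost without CDM replicate 2, and SLC7A5 without TKO replicate 2. Without TKO replicate 1 the number was 0 and the median -0.21, whereas the replicate block gave 12 lower. WT was higher than CDM at 22 of the 23, and at 12.4% of all genes. HSP90B1, the endoplasmic reticulum chaperone GRP94, was the 1 of 22 genes of that compartment that differed (-0.85), and the block gave 2 higher and 7 lower. Sterol synthesis gave 3 lower of 17, TM7SF2 (-0.83), MVD (-0.60) and the regulator SREBF2 (-0.43), 1 without TKO replicate 1, and the block gave 6 lower and 1 higher. MVD and SREBF2 were also lost without CDM replicate 2 and without TKO replicate 2, and MVD without CDM replicate 1 or TKO replicate 3. Fatty acid synthesis gave 2 of 10, SREBF1 (-0.46) and FADS2 (-0.46), both lost without TKO replicate 1 and without CDM replicate 3. With averaged probe sets FADS2 was at -0.07 and SREBF1 at -0.23.

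Of 25 proteasome genes 4 were lower, where 7.18% of all genes were, and 0 higher (median -0.18): the base ATPases PSMC4 (-0.91) and PSMC3 (-0.84), PSMD3 (-0.63) and the core subunit PSMA5 (-0.44), and 9 were lower with the block. PSMA5 was at -0.05 with averaged probe sets, and PSMD3 was lost without CDM replicate 2. PSMC4 stood at 10.517, 10.557 and 10.633 in TKO and 9.697, 9.578 and 9.69 in CDM (limma adjusted p = 1.36e-05), with no overlap. Of 25 respiratory chain genes 3 were lower, NDUFV1 (-0.89), NDUFB1 (-0.31) and SDHC (-0.28). NDUFB1 was kept only in the fit without TKO replicate 1 when 1 of the 6 arrays was left out. SDHC was at -0.15, past no threshold, with averaged probe sets, and its single probe sets ran from -0.95 to 0.33. Glycolysis and hypoxia genes went both ways among 29. GPI (-0.87) and ENO2 (-0.72) were lower, and PFKFB3 (0.67), the demethylase KDM3A (0.53) and the oxygen sensor EGLN1 (0.30) higher. Those counts were near the 7.18% lower and 9.99% higher of all genes. Without TKO replicate 1 the list gave 1 lower and 0 higher, GPI was lost without any 1 of the 6 arrays, PFKFB3 and KDM3A were each lost in 4 or 5 of those fits, and the block gave 7 higher and 8 lower.

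Proliferation genes were split. Of all genes tested 9.99% were higher and 7.18% lower in CDM, and several of the counts below are near those shares. Of 34 genes of DNA replication 6 were lower, led by the polymerase subunit POLD1 (-0.68), thymidine kinase TK1 (-0.47) and the helicase factor CDC45 (-0.46), and 3 were higher, the kinase CDC7 (0.43), RFC3 (0.41) and RFC5 (0.33). TK1 was lost without TKO replicate 1 or CDM replicate 3, though its other probe set read -1.49 (limma adjusted p = 1.79e-06 over all probe sets). CDC7 was lost without TKO replicate 1, CDM replicate 1 or CDM replicate 2. Averaged probe sets gave 11 lower and 1 higher. Of 32 mitosis genes KIF23 (0.62), ANLN (0.59), ECT2 (0.57), TTK (0.42) and CDK1 (0.36) were higher, the first 3 of them cytokinesis proteins. AURKB (-0.54), CENPA (-0.49), TPX2 (-0.43), CDC20 (-0.43) and ESPL1 (-0.40) were lower, and the list gave 1 lower without TKO replicate 1. ANLN was lost without TKO replicate 1, and ECT2 was at 0.09 with averaged probe sets. The p53 targets SESN1 (0.65), PPM1D (0.52) and RRM2B (0.52) were higher among 14, with RRM2B lost in 4 of the 6 fits without 1 array. In the BCL2 family the BH3-only death inducer BCL2L11 was higher (0.64) and BAX (-0.44) and BAD (-0.34) lower, of 14, with BAD lost in 4 of those 6 fits. MYC was higher (0.39, adjusted p = 0.0406) while its targets CDK4 (-0.61) and FBL (-0.25) were lower, of 17, and MYC and FBL were lost without any 1 of the 6 arrays. Of 13 histone genes 1 was lower (H2BC6, -0.59), 0 without TKO replicate 1 or without CDM replicate 3 and 7 with the block, and H2BC6 was also lost without CDM replicate 2 or TKO replicate 2. Of 27 ribosomal protein genes 1 was higher (RPL14, 0.26).

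Adhesion genes gave 3 higher and 1 lower of 22, near the 9.99% and 7.18% of all genes. The higher ones were the integrin chains ITGA6 (0.85, limma adjusted p = 0.0493), ITGAV (0.49) and ITGB1 (0.47). The leukocyte chain ITGAL was lower (-0.56, and -1.44 on its other probe set). ITGB1 stood at 10.733, 10.758 and 10.748 in TKO, 11.249, 11.184 and 11.22 in CDM and higher again in WT (difference from CDM 0.44, limma adjusted p = 4.25e-05), but 1 of its other probe sets read -0.03 and another 0.39. ITGA6 was lost in 8 other fits, ITGAV in 6, and ITGB1 was at 0.15 with averaged probe sets. With averaged probe sets the list gave 1 higher and 3 lower. The 7 chemokine genes tested gave 0 calls.

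Chromatin genes that share a substrate with NSD2 were read next. Their counts stand beside 9.99% higher and 7.18% lower of all genes tested. Of 12 enzymes that add or remove H3K36 methylation SETD2, which trimethylates that residue, was higher on its brightest probe set (8.326, 8.324 and 8.383 in TKO, 8.783, 8.76 and 8.752 in CDM, 0.42, limma adjusted p = 0.00932). Its other probe sets read -0.13 and -0.75, and the mean of all 3 was -0.15, so SETD2 has no settled direction. NSD1 (-0.10) and NSD3 (0.38) missed the threshold. The block gave 5 higher and 1 lower in this list, and averaged probe sets 0 higher and 2 lower. Of 16 genes of PRC2 and H3K27 methylation AEBP2 (0.71), the demethylase KDM6A (0.44) and RBBP4 (0.24) were higher. RBBP4 was lost with the block (adjusted p = 0.0534), without CDM replicate 3 and without TKO replicate 1 or 3, and was -0.02 with averaged probe sets, and KDM6A was at 0.08.

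Of 6 genes reported for NSD2 or its myeloma class, 0 passed in CDM on the probe set used. With the replicate block 1 was higher (CR2) and 1 lower (ITGB7), and CCND2 was lower on its other probe sets. RRAS2, a RAS GTPase, stood at 2.979, 3.002 and 3.127 in TKO and 2.916, 2.626 and 2.769 in CDM, dim in both, while WT was above CDM by 4.03 (limma adjusted p = 1.04e-15). The EGF receptor ligand TGFA was dim in both (0.10, adjusted p = 0.912), with WT above CDM by 2.08. CR2, the complement receptor of B cells, stood at 4.365, 4.236 and 4.064 in TKO and 4.821, 4.886 and 4.811 in CDM, without overlap (0.62, adjusted p = 0.272, and 0.00408 with the replicate block), and at 9.744 in PAR. MET differed by -0.03. The integrin ITGB7 differed by -0.58 (adjusted p = 0.365, and 0.00507 with the block). CCND2, cyclin D2, was split between probe sets: the brightest stood at 12.05 in TKO and 12.13 in CDM, and the other 3 all fell from TKO to CDM. They went from 9.589 to 8.715 (limma adjusted p = 3.04e-05 over all probe sets), from 7.79 to 5.947 (1.79e-05) and from 6.85 to 5.703 (0.000297), and the mean of all 4 CCND2 probe sets was lower by a log2 difference of -0.95.

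**Figure D3:**
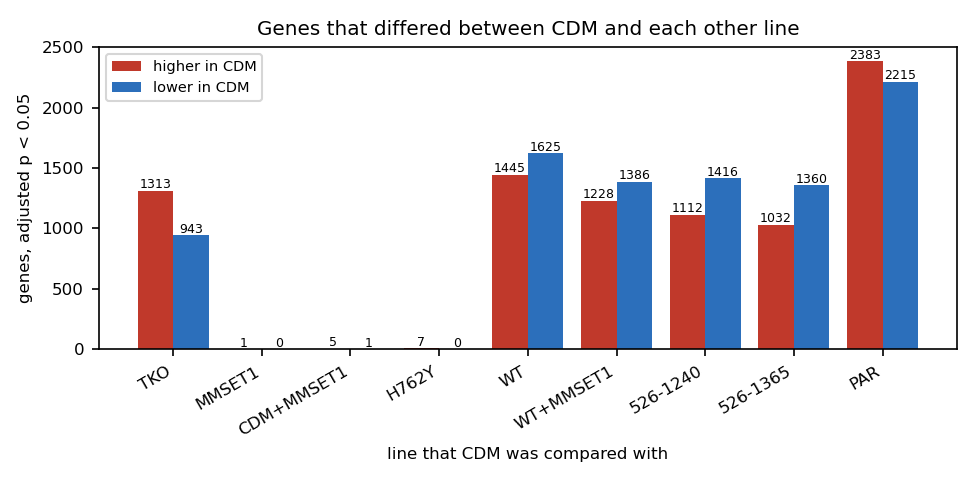
Number of genes past an adjusted p of 0.05 (limma) between CDM and each of the other 9 lines, split by direction. CDM differed at 1 gene from MMSET1, 6 from CDM+MMSET1 and 7 from H762Y, and at 2256 or more from each other line.

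CDM differed at few genes from MMSET1, CDM+MMSET1 and H762Y. CDM differed from MMSET1 at 1 gene (0.00761%), MARK1, a microtubule affinity kinase (0.83, limma adjusted p = 0.00314), with 257 genes at an unadjusted p under 0.05. MARK1 read 7.275 in TKO and 7.303 in CDM but 6.478 in MMSET1. CDM differed from CDM+MMSET1 at 6 genes (0.0457%): PTPRF, GLMP, SMPDL3A, ABCG1 and MARK1 were higher in CDM and RADX lower. From H762Y it differed at 7 (0.0533%), all higher in CDM (DOCK5, SH3BP4, PTPN3, PUS7L, KCTD6, VPS54 and GNAI1), and at 34 without H762Y replicate 1. The standard error was the same in each comparison (median 0.13), as the estimate of spread is shared by all lines. In the lines alone, CDM against MMSET1 had 515 genes at an unadjusted p under 0.05, and 887 with the replicate block. CDM against CDM+MMSET1 had 2316 such genes in its lines alone (634 in the main fit), with 50 called. CDM against H762Y had 736 (902 in the main fit). Against TKO, MMSET1 differed at 2220 genes (16.9%), CDM+MMSET1 at 2382 (18.1%) and H762Y at 2070 (15.8%). These counts share the TKO arrays, so no overlap between them was drawn. CDM differed from WT at 3070 genes (23.4%), from 526-1240 at 2528 (19.2%), from 526-1365 at 2392 (18.2%), from WT+MMSET1 at 2614 (19.9%) and from PAR at 4598 (35%).

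A p that misses the threshold does not show that these lines act alike, and the intervals give the room left. The 15 highest and 15 lowest genes were chosen with the CDM arrays, which also enter these differences. The unadjusted intervals therefore lean toward the direction of the choice and do not keep their coverage. None of these genes passed the adjusted threshold between CDM and MMSET1. Over the 15 highest genes the difference between CDM and MMSET1 ran from -0.63 to 1.11, and 95% intervals of single genes reached from -1.04 to 1.77. The intervals of IL7R, RADX, TRAT1 and MYO6 did not include 0. IL7R was 1.11 higher in CDM than in MMSET1 (interval 0.46 to 1.77) and RADX 0.63 lower (-0.87 to -0.39). Over the 15 lowest genes the differences ran from -0.28 to 0.26, all 15 intervals lay within 1 unit of 0, and PDAP1 alone had an interval without 0.

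Setting CDM beside WT parted the named genes into patterns. WT was higher than CDM at 5 of the 15 highest genes (12.4% of all genes were higher in WT and 11% lower): GNAI1 (1.17), MAP9 (1.11), RADX (1.66), SLC18B1 (0.79) and MYO6 (1.68). For these CDM lay between TKO and WT, an order that follows from the rule, which chose genes with CDM above TKO. The choice of the 15 highest and 15 lowest used the CDM arrays, so differences between WT and CDM lean with it too. WT was lower than CDM at 4 of the 15 highest: IL7R (-2.60), TRAT1 (-1.61), DUSP4 (-1.0) and PPIC (-0.82). IL7R had means of 4.099 in WT, 4.114 in PAR and 4.242 and 4.326 in the fragment lines, against 5.474 in H762Y, 5.589 in MMSET1, 6.264 in CDM+MMSET1 and 6.7 in CDM. The SD of IL7R was 0.555 in CDM and 0.718 in MMSET1, so neighbours in that upper order differ by less than their spread. Among the 15 lowest, WT differed from CDM at CYP1B1 (0.98), UBA1 (-0.71) and SH3BGRL3 (-0.58).

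A second measurement of the dead protein came from CDM+MMSET1 against MMSET1, which shares no array with CDM against TKO. It called 2 of 13137 genes (0.0152%), both lower, and 548 genes had an unadjusted p under 0.05. The standard error again had a median of 0.13, but it comes from the estimate of spread shared by all lines and does not measure the spread of these lines. A fit of these lines alone called 0 genes, with 1536 at an unadjusted p under 0.05. PTPRF, a receptor tyrosine phosphatase, stood at 9.813, 9.877 and 9.76 in MMSET1 and 9.222, 9.298 and 9.183 in CDM+MMSET1 (-0.58, limma adjusted p = 0.0117). PTPRF was also lower in CDM than in TKO (-0.32, adjusted p = 0.0134), the 1 gene called the same way in both, but that call was lost without CDM replicate 3 or TKO replicate 1. The lysosomal membrane protein GLMP was lower with MMSET I present (-0.75, adjusted p = 0.0132) and higher in CDM than in TKO (0.35, adjusted p = 0.0448). Both calls of CDM+MMSET1 against MMSET1 were lost when a gene's probe sets were averaged and in 4 of the 6 fits that left out 1 array of these lines.

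The genes called between CDM and TKO showed no shared direction here. Of the 2256, 1016 (45%) had the same sign and 1240 the opposite sign, where 48.1% of all tested genes had the same sign, and of the 84 at least 2-fold 35 had the same sign. Their median absolute difference was 0.474 in CDM against TKO and 0.084 in CDM+MMSET1 against MMSET1. Across all tested genes the correlation was 0.00499, a description over genes, which are not independent replicates. Of the 30 named genes at the extremes, intervals without 0 were found in the second measurement for IL7R (0.68), TRAT1 (0.99), MAP9 (0.44), ZBTB10 (-0.47), TNFRSF18 (-0.38) and CYP1B1 (0.82). None of them passed the adjusted threshold.

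**Figure D4:**
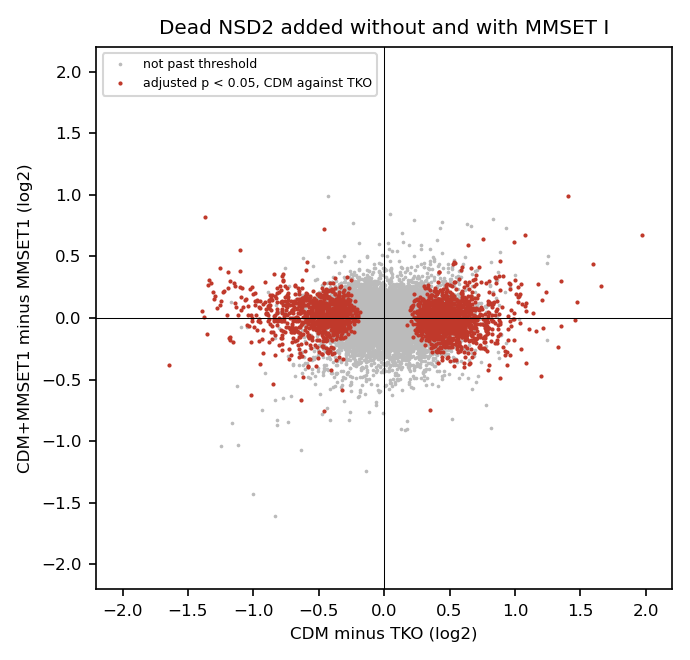
Log2 difference of CDM minus TKO (horizontal) against CDM+MMSET1 minus MMSET1 (vertical), 1 dot per tested gene, with the 2256 genes past the threshold on the horizontal axis in red. The red dots spread along the horizontal axis and stay near 0 on the vertical, with 45% of them having the same sign on both axes, against 48.1% of all tested genes.

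The difference of the 2 effects, CDM+MMSET1 minus MMSET1 less CDM minus TKO, was tested itself. An effect here is only a difference between 2 lines. The test passed at 943 genes (7.18%), 449 higher (3.42%) and 494 lower (3.76%). TKO enters the second effect alone, so the dead protein, delivery of a transgene, selection and drift cannot be told apart here either. MMSET1 itself differed from TKO at 2220 genes, and CDM from MMSET1 at 1. Averaged probe sets gave 481 and 219, and the block 2843 genes. CYP1B1 had the largest positive value (2.19, SE 0.411, limma adjusted p = 0.00188), with -1.37 in CDM against TKO and 0.82 in CDM+MMSET1 against MMSET1. PFN1 (1.66), the translation factor EIF5A (1.65), PKM (1.65) and UBA1 (1.62) followed, all lower in CDM than in TKO. On the other side stood ZBTB10 (-1.67), MIR3916 (-1.56), RADX (-1.48), the Notch target HEY1 (-1.45, adjusted p = 0.0494) and PPIC (-1.41), all higher in CDM than in TKO. These opposite directions follow from the form of the contrast, which subtracts CDM minus TKO, where CDM+MMSET1 minus MMSET1 is small. They are not a separate result.

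The share of genes higher or lower varied with chromosome, gene span and level. Over all tested genes 9.99% were higher and 7.18% lower in CDM. On chromosome 19, 166 of 926 tested genes (17.9%) were lower and 23 (2.48%) higher. On chromosome 22 the counts were 34 (9.32%) and 7 (1.92%) of 365, so the share lower was near that of all genes. It was also below the share lower on chromosomes 16 (10.9%) and 20 (9.85%). On chromosome 13, 40 of 216 were higher and 1 lower, on chromosome 18 37 and 4 of 179, and on chromosome 4 74 and 13 of 442. In 514 runs of 25 neighbouring genes the median difference stayed between -0.32 and 0.37. The lowest run, from DXO to BRD2 on chromosome 6, holds class II genes and had 13 lower and 1 higher. Gene span gave a graded split: with genes in 5 groups of equal size, in the shortest (up to 8.161 kb) 3.24% were higher and 10.6% lower, and in the longest (from 85.42 kb) 17.2% and 2.36%. With the replicate block these shares were 7.16% and 18.9% in the shortest and 31.4% and 5.37% in the longest. The medians went from -0.065 to 0.13, and in CDM+MMSET1 against MMSET1 they were 0.007 and 0.002. By mean level, also in 5 equal groups, 2.4% were higher and 1.75% lower in the dimmest, 18.3% and 8.95% in the fourth and 15.1% and 7.04% in the brightest. Chromosome, span and level were not tested jointly. By promoter GC the share higher ran from 9.82% to 10.9%, with values for 80.1% of genes.

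Probe sets of the same gene also moved apart. Over 6451 genes with at least 2 tested probe sets, the median gap between the brightest and the second was 0.925 to 0.947 on the TKO arrays and 1.01 to 1.03 on the CDM arrays. The 6 arrays of PAR and TKO (0.925 to 0.982) did not overlap the 24 arrays of the transgene lines (0.987 to 1.07). The SD of the difference between the 2 probe sets was 0.388 in CDM against TKO and 0.132 in CDM against MMSET1. Of the 1337 genes called in CDM with several tested probe sets, 204 had all of them called the same way and 132 had at least 1 called the opposite way, 113 of these among the 895 higher genes and 19 among the 442 lower. DUSP4, TNFRSF18, NAPA, GNAI1, PPIC and IL7R belong to the genes whose tested probe sets all passed in 1 direction. The part of this gap in the differences between CDM and TKO was not tested.

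**Figure D5:**
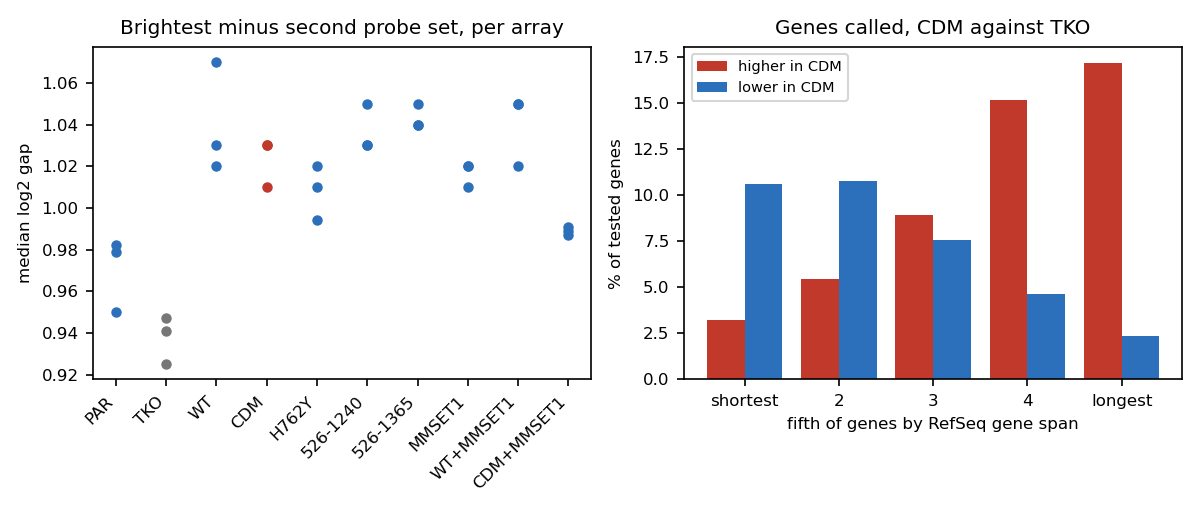
Left, median log2 gap between the brightest and second brightest probe set of 6451 genes, 1 dot per array, with an axis that does not start at 0; the PAR and TKO arrays lie lowest. Right, percent of tested genes higher and lower in CDM than in TKO in 5 equal groups by RefSeq gene span; the share higher goes from 3.24% to 17.2% and the share lower from 10.6% to 2.36%.

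The arrays kept the markers of a plasma cell line. Of 8 plasma cell markers on the array 7 were above the dim limit in CDM, with a mean level of 9.033 to 9.06 on the CDM arrays and 9.021 to 9.143 on the TKO arrays. T cell markers had mean levels of 5.58 to 5.655 in CDM and 5.261 to 5.358 in TKO, where 4 and 5 of 9 were dim, and IL7R is the marker that passed. Epithelial markers lay at 4.987 to 5.212 and 4.96 to 5.049, with EPCAM higher in CDM (0.76, limma adjusted p = 0.0145) and at 9.56 in PAR, a call lost without CDM replicate 3, TKO replicate 1 or TKO replicate 2. Fibroblast (4.618 to 4.723 and 4.66 to 4.823), monocyte and macrophage (4.026 to 4.234 and 4.027 to 4.066) and erythroid markers (6.56 to 6.638 and 6.393 to 6.582) gave 0 calls among the 4, 1 and 4 tested. Their part in the results was not tested.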

How the data were processed

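Gene expression of 30 HG-U133 Plus 2.0 arrays was taken from the authors' deposited log2 values, computed by RMA, per the submitters' processing notes and the design text. The sources used here name neither the RMA version nor the chip definition. The values ran from 1.91 to 14.62 and were not normalized again. Of 54613 probe sets, 41091 had 1 symbol in the platform annotation, 1801 several and 11721 none, and only the first were used. For each of 19775 genes the probe set of highest mean was taken, and 13137 genes above 5.013 on at least 3 arrays were tested.

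A linear model with a mean for each line used all 30 arrays (limma 3.58.1, R 4.3.3, 20 residual df), with p-values adjusted by Benjamini-Hochberg over all tested genes and called at 0.05. The SE is moderated, and intervals are 95% and unadjusted. NSD2 was also tested over 30041 probe sets. The code was tested on simulated data.

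Named were NSD2, the 15 highest and 15 lowest genes of CDM against TKO past the threshold without overlap of arrays, genes called the same way in both measurements of the dead protein, 5 and 5 of the difference of effects, up to 4 called members of each list, and the reported NSD2 targets. Members shown beyond 4 and genes that missed the threshold were named after their values were seen. So were the few genes that parted CDM from MMSET1, CDM+MMSET1 and H762Y. Members and the 34 lists were chosen with earlier results of these data known. Lists are described by counts and medians. Gene span and promoter sequences came from RefSeq (GRCh38.p14).

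Replicate numbers were checked by residual correlation of arrays with equal numbers. It was 0.34, 0.217 and 0.222 for CDM and TKO, which paired them. For CDM and MMSET1 it was 0.203, 0.33 and 0.478, which paired them too, though the main fit has no block. For CDM+MMSET1 and MMSET1 it was 0.257, -0.223 and 0.0154, which did not pair them. The comparisons of CDM with MMSET1, CDM+MMSET1 and H762Y, gene span and agreement among probe sets were added after the data were seen.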

Additional observations from a re-analysis of the deposited data

Results flagged for a closer look

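The difference between CDM+MMSET1 minus MMSET1 and CDM minus TKO passed the test at 943 genes. As in every comparison with TKO, the dead protein, delivery of a transgene, selection and drift cannot be told apart in it. The 5 largest on the positive side were CYP1B1 (2.19), PFN1 (1.66), EIF5A (1.65), PKM (1.65) and UBA1 (1.62), each lower in CDM than in TKO. On the negative side were ZBTB10 (-1.67), MIR3916 (-1.56), RADX (-1.48), HEY1 (-1.45) and PPIC (-1.41), each higher in CDM than in TKO. The contrast subtracts CDM minus TKO, so these opposite directions follow from its form where the other difference is small. These values come from an interaction contrast of log2 differences, tested with limma over all genes.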

How the results depend on the processing

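Of 1556 values of 104 named genes under other settings, 1390 kept direction and side of the threshold, 159 no longer passed, 4 newly passed and 3 turned sign. Those 3, with averaged probe sets, were RBBP4 (-0.02), SETD2 (-0.15) and CCND2 (-0.95), and their probe sets disagree.

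CDM against TKO gave 2256 genes, and 750 higher with averaged probe sets. A fit of the 2 lines alone gave 3410 (1987 higher, 1423 lower), and with the replicate block 4092 (2402 and 1690). Leaving out an array gave 1438 to 2877 genes, 776 to 1666 higher and 611 to 1211 lower, and 0 to 2 NSD2 probe sets.

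CDM+MMSET1 against MMSET1 gave 0 genes with averaged probe sets and 0 in those lines alone. With the replicate block it gave 1, higher, and 0 lower, though the numbers did not pair these arrays. Leaving out an array gave 0 to 2, all lower.

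The difference of effects gave 2505 genes in its lines alone (1108 higher, 1397 lower), 2843 with the replicate block (1216 and 1627) and 219 lower with averaged probe sets. Leaving out an array gave 566 to 1392, with 295 to 633 higher and 270 to 759 lower.

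CDM against MMSET1 gave 0 in those lines alone, 0 with the replicate block, 2 with averaged probe sets and 1 to 4 leaving out an array. Against H762Y these were 0, 0, 0 and 0 to 34, and against CDM+MMSET1 50, 0, 2 and 0 to 17. The cause was not tested. With 3 arrays a line, small differences of dim genes are not resolved.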
